A study of Oryctolagus cuniculus with 6 samples.

Results

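Of the 16815 rabbit genes counted in trachea, the 8 described here are those that the authors' deposited pathway table lists under glutathione metabolism. That list is not the whole pathway: the authors' deposited table gives 29 pathway genes in its background of 3967, so 21 of them are not named in it and were not analysed here. The listed genes were chosen by their differences in read counts between the hydrogel and blank groups compared below, so the direction and size of those differences describe the 8 genes and test nothing. The genes carry Ensembl rabbit identifiers only, and none could be paired with a gene symbol. Which enzyme each one encodes is therefore not stated, and no sequence is shown.

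The RNA came from tracheae of wild-type rabbits (Oryctolagus cuniculus), collected on day 14 and sequenced in 2 groups of 3 libraries. The blank group is labelled as having an epithelial deficiency and no added material. The hydrogel group is labelled as having an epithelial injury together with LA@PA-TA@C, the Janus (2-faced) hydrogel of the study. The labels use a different word for the damage in each group, and they give no strain, age or sex. Per the series' design text the 3 libraries per group are biological replicates, and an uninjured group was not analysed here. The comparison asks how the transcriptome of the trachea differed between the 2 labelled groups. Whether the damage was made in the same way is not stated, so damage and hydrogel cannot be told apart.

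Glutathione is a small thiol peptide built from glutamate, cysteine and glycine, and is the main soluble antioxidant of most cells. Glutathione peroxidases use it to reduce hydrogen peroxide and lipid peroxides, glutathione reductase regenerates it with NADPH, and glutathione S-transferases attach it to reactive compounds so that they can be removed. The fluid that lines the airway is rich in glutathione, and the airway epithelium meets inhaled oxidants first.

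Total counts ran from 16827419 to 23390531 per library, and the ranges of the groups overlapped. Every one of the 8 genes was counted in each library, with 10 to 11884 reads. Levels are given as reads per 1000000 counted reads (CPM). They are not divided by transcript length, so levels of different genes are not compared with each other. Differences are log2 fold changes of hydrogel against blank from an edgeR fit over all 13598 genes that passed a filter on low counts, and their standard errors (SE) are approximate. Bulk RNA cannot tell more cells of a type from more RNA per cell. The labelled tissue could not be checked against marker genes, because that needs symbols.

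All 8 genes were higher in every hydrogel library than in any blank library. Of the 13598 genes tested, 18.7% were separated in this way with hydrogel higher. Together the 8 genes took 0.0284%, 0.0418% and 0.0302% of all counts in the 3 blanks, in replicate order. In the hydrogel libraries they took 0.101%, 0.166% and 0.126%. The mean share was 0.0335 ± 0.00730% for blank and 0.131 ± 0.0328% for hydrogel (SD, n = 3), a ratio of 3.91. The highest blank library and the lowest hydrogel library were well apart, and the spread within hydrogel was the larger of the 2 groups on this linear scale. Without ENSOCUG00000014719, the gene with the most counts, the ratio was 4.00.

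**Figure D1:**
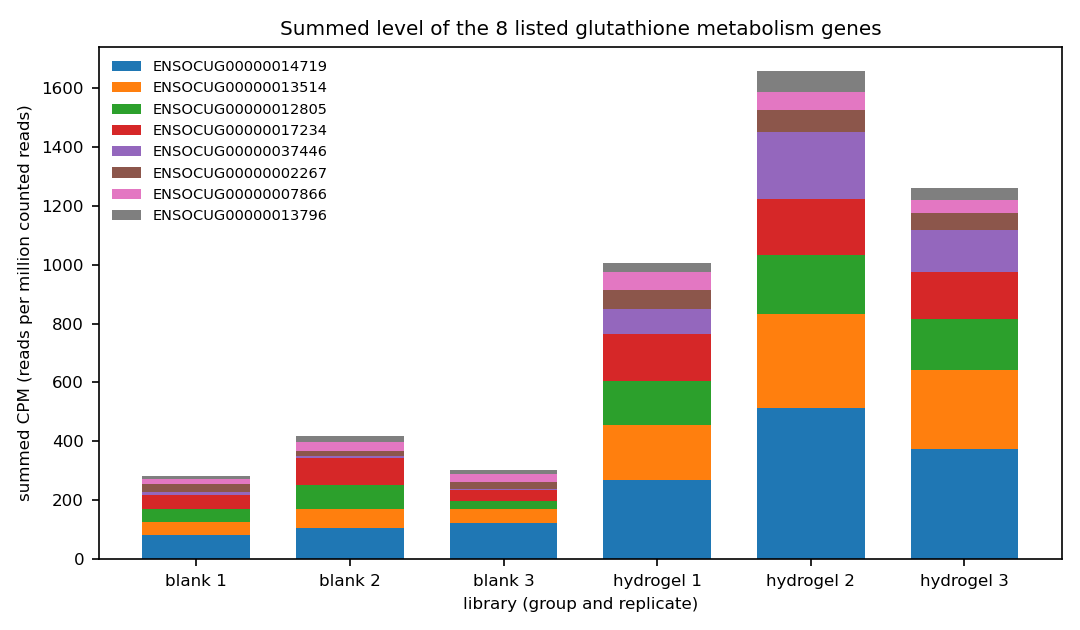
Summed CPM of the 8 listed glutathione metabolism genes in each of the 6 libraries, with 1 colour per gene and bars starting at 0. The blank libraries reach 284, 418 and 302 CPM, and the hydrogel libraries 1006, 1657 and 1260 CPM.

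The authors' deposited tables allow a division of the 8 genes by the other terms that list them. Both tables were made from the same comparison, so the division adds no independent evidence. Exactly 2 genes are listed under oxidation-reduction process and glutathione metabolic process, 2 under oxidation-reduction process alone, 2 under glutathione metabolic process alone, and 2 under no other term. A gene under oxidation-reduction process is annotated to a reaction that transfers electrons, as glutathione peroxidases and glutathione reductase do.

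The pair under both terms showed smaller differences than most of the 8. ENSOCUG00000017234 was at 49.9, 91.6 and 38.1 CPM in blank replicates 1 to 3 and at 159, 193 and 160 CPM in hydrogel replicates 1 to 3. The hydrogel libraries lay close together, and the spread was mostly among the blanks. Group means were 59.9 ± 28.1 and 171 ± 19.5 CPM (SD, n = 3), with a log2 fold change of 1.50 (SE 0.27). ENSOCUG00000007866 was at 14.6, 31.5 and 27.4 CPM in blank and at 59.9, 60.8 and 44.9 CPM in hydrogel. This gene had the smallest gap of the 8: hydrogel replicate 3 was 1.42 times blank replicate 2. Its means were 24.5 ± 8.81 and 55.2 ± 8.90 CPM (SD, n = 3), and its log2 fold change of 1.15 (SE 0.29) was the lowest of the 8. It was also the single gene of the 8 that did not pass in edgeR.

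The pair under oxidation-reduction process alone had the second and the third largest log2 fold change of the 8. ENSOCUG00000014719 was at 82.9, 105 and 123 CPM in blank replicates 1 to 3 and at 268, 515 and 374 CPM in hydrogel replicates 1 to 3. Hydrogel replicate 2 was 1.92 times hydrogel replicate 1, and the groups did not overlap. Means were 104 ± 20.3 and 386 ± 124 CPM (SD, n = 3), with a log2 fold change of 1.84 (SE 0.29). ENSOCUG00000013514 was at 41.8, 63.2 and 45.8 CPM in blank and at 189, 317 and 269 CPM in hydrogel. The 3 blank libraries were the most alike among the 8 genes on the log2 scale, with an SD of 0.154. Means were 50.3 ± 11.4 and 258 ± 64.6 CPM (SD, n = 3), and the log2 fold change was 2.33 (SE 0.24).

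Both genes listed under glutathione metabolic process alone had differences near the middle of the 8. ENSOCUG00000012805 was at 44.0, 82.2 and 28.7 CPM in blank replicates 1 to 3 and at 149, 201 and 172 CPM in hydrogel replicates 1 to 3. Blank replicate 2 was 2.86 times blank replicate 3, a wider range than in hydrogel, where it was 1.35 times. Its means were 51.6 ± 27.5 and 174 ± 26.2 CPM (SD, n = 3), with a log2 fold change of 1.75 (SE 0.33). ENSOCUG00000013796 was at 12.8, 20.2 and 13.0 CPM in blank and at 32.5, 70.5 and 39.2 CPM in hydrogel. Its highest hydrogel library stood apart from the other hydrogel libraries, and the groups did not overlap. Means were 15.3 ± 4.21 and 47.4 ± 20.3 CPM (SD, n = 3), with a log2 fold change of 1.60 (SE 0.34). ENSOCUG00000003063, listed under the same term but not under the pathway, was at 6.84, 9.58 and 2.49 CPM in blank and at 22.4, 21.4 and 16.6 CPM in hydrogel, with a log2 fold change of 1.66 (SE 0.49).

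The 2 genes under no other term were unlike each other. ENSOCUG00000002267 was at 27.8, 15.0 and 24.8 CPM in blank replicates 1 to 3 and at 65.4, 74.6 and 58.4 CPM in hydrogel replicates 1 to 3. It was the one gene of the 8 with its lowest blank value in replicate 2. Means were 22.5 ± 6.67 and 66.1 ± 8.13 CPM (SD, n = 3), with a log2 fold change of 1.47 (SE 0.33). ENSOCUG00000037446 was at 10.1, 9.16 and 0.578 CPM in blank and at 84.3, 226 and 142 CPM in hydrogel. Blank replicate 3 had 10 reads of this gene, against 236 and 193 in the other blanks, and the exact 95% Poisson interval of its level was 0.277 to 1.06 CPM, which covers counting error only. Means were 6.61 ± 5.24 and 151 ± 71.4 CPM (SD, n = 3), a ratio of 22.8 and a log2 fold change of 4.48 (SE 0.92). Without blank replicate 3 the log2 fold change was 3.94, still the largest of the 8.

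**Figure D2:**
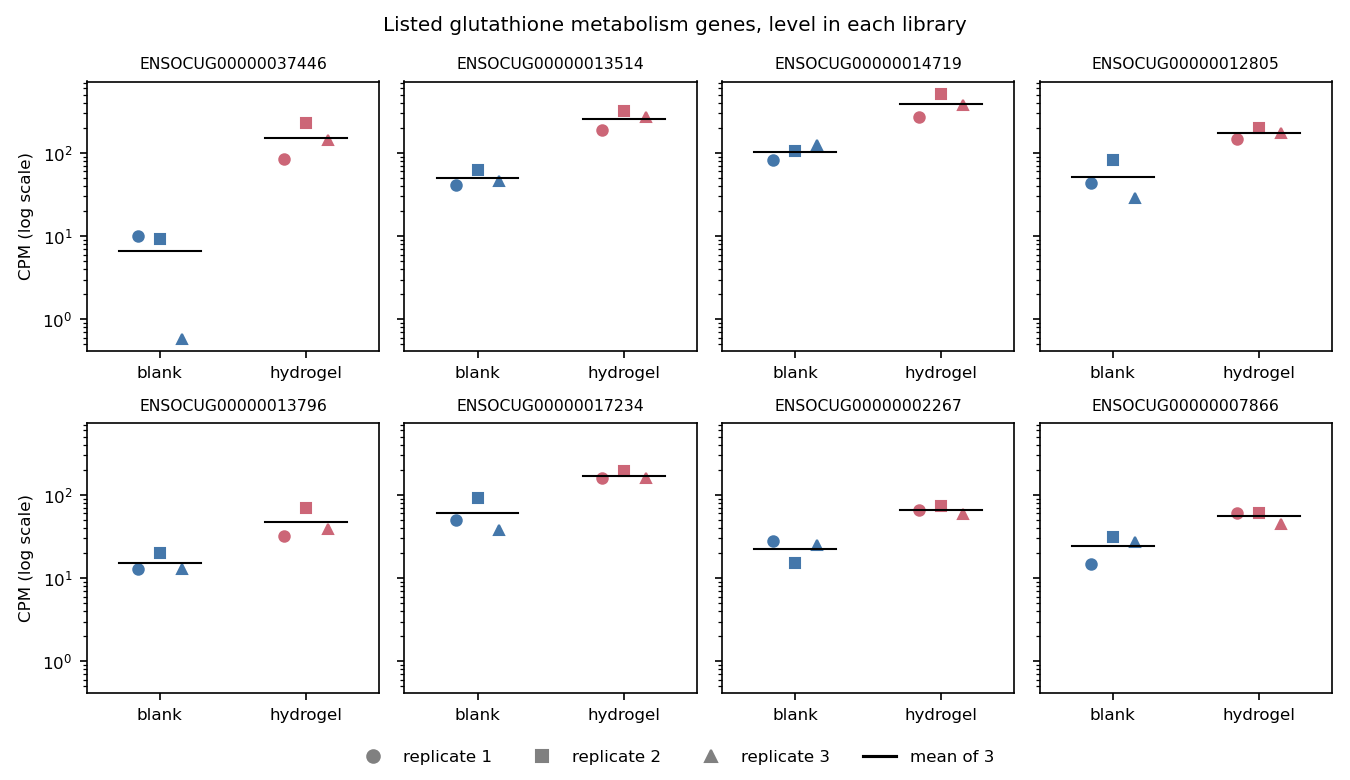
CPM of each of the 8 listed genes in the 3 blank (blue) and 3 hydrogel (red) libraries on a log axis, with the marker shape giving the replicate and the line the mean of 3. The groups are apart in each panel, and blank replicate 3 of ENSOCUG00000037446, at 0.578 CPM, lies far below the other blanks.

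Over the 8 genes the log2 fold change had a median of 1.68 and a range of 1.15 to 4.48, where the median over all genes tested was -0.03. In edgeR (quasi-likelihood test, Benjamini-Hochberg adjustment over 13598 genes, threshold 0.05), 7 of the 8 genes passed with hydrogel higher. Of all genes tested, 4.49% passed in that direction and 6.36% in either. In DESeq2 all 8 passed with hydrogel higher, against 8.75% of 14639 genes in that direction. Because the list was selected on this contrast, nothing is read from these counts. Single libraries decided the edgeR count, as they did over all genes, of which 865 passed in either direction. Leaving out hydrogel replicate 2 left 0 of the 8 and 7 of all genes, and leaving out hydrogel replicate 3 left 0 and 11. At an unadjusted p under 0.05, the 8 genes all passed in both fits, as did 15.4% and 16.3% of all genes. Leaving out hydrogel replicate 1 left 3 of the 8 and 501 of all genes, and leaving out blank replicate 1 left 3 and 741. The replicates were not equally distinct. Between hydrogel replicates 2 and 3 the mean chi-square per gene, which is higher for less alike libraries, was 30.4. It was 140 and 129 for hydrogel replicate 1 against replicates 2 and 3, and 221 to 277 between blanks. The reason was not tested.

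The authors' deposited comparison table holds 1019 genes, all past 2 in absolute log2 fold change. It includes 2 of the 8, ENSOCUG00000037446 with a log2 fold change of 4.49 and ENSOCUG00000013514 with 2.34. The other 6 had DESeq2 log2 fold changes below that limit, with ENSOCUG00000014719 nearest to it at 1.85. The pathway list was therefore drawn with a looser limit than that table, and the limit is not given in the sources used here. Over all 230 genes with a DESeq2 value that the authors' deposited term tables list, the smallest absolute log2 fold change in a DESeq2 repeat was 1.00. The lowest among the 8 was 1.14, for ENSOCUG00000007866. Pathway genes just outside the list were not analysed here.

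**Figure D3:**
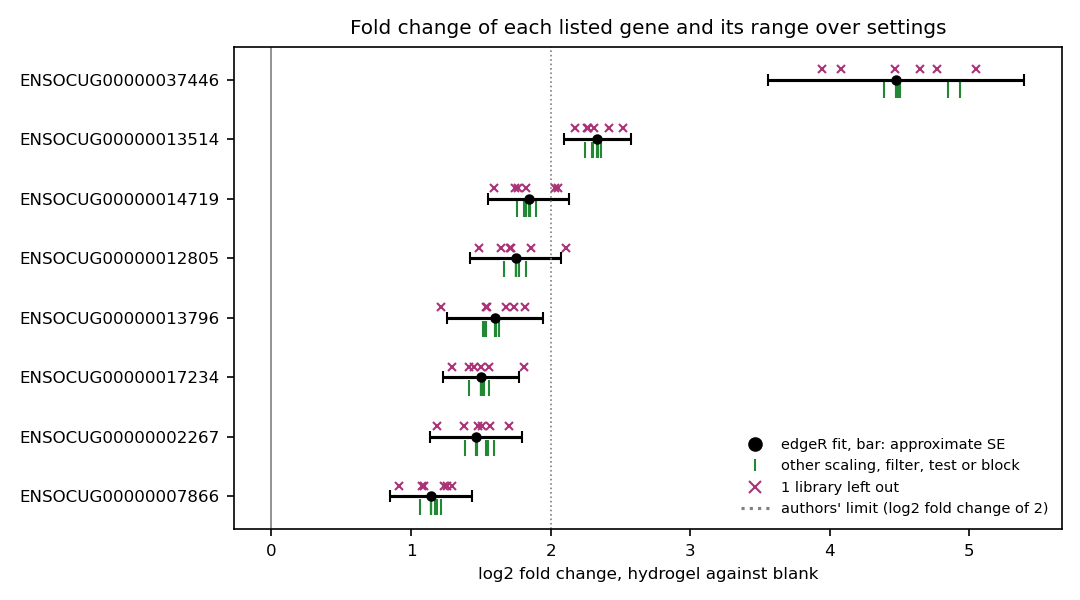
Log2 fold change of hydrogel against blank for each of the 8 genes, with the edgeR value (black point, bar for the approximate SE), values under other scalings, filters, tests or the block (green) and values with 1 library left out (purple). All values are above 0, and ENSOCUG00000037446 lies between 3.94 and 5.05 while the others stay between 0.92 and 2.52.

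The order of libraries within a group is described next. Spread within groups enters the adjusted p by which the genes were listed, so it is a description too. Within hydrogel, replicate 2 had the highest CPM for all 8 genes, and this held after TMM scaling, which corrects for library composition; among all genes tested, 28.6% were highest in that library after TMM scaling. Hydrogel replicate 1 was the lowest of its group for 6 of the 8 genes, against 40.6% of all genes tested, and hydrogel replicate 3 for ENSOCUG00000007866 and ENSOCUG00000002267. The margin was small for ENSOCUG00000007866, at 60.8 against 59.9 CPM. The blanks showed no such common order. After TMM scaling, blank replicate 3 was the lowest for 4 genes, replicate 1 for 3 and replicate 2 for 1. The genes are not independent of each other, so these counts are descriptions. The median SD of log2 CPM within blank was 0.495 for the 8 genes and 0.488 for all genes tested. Within hydrogel it was 0.302 for the 8 genes and 0.373 for all genes tested.

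**Figure D4:**
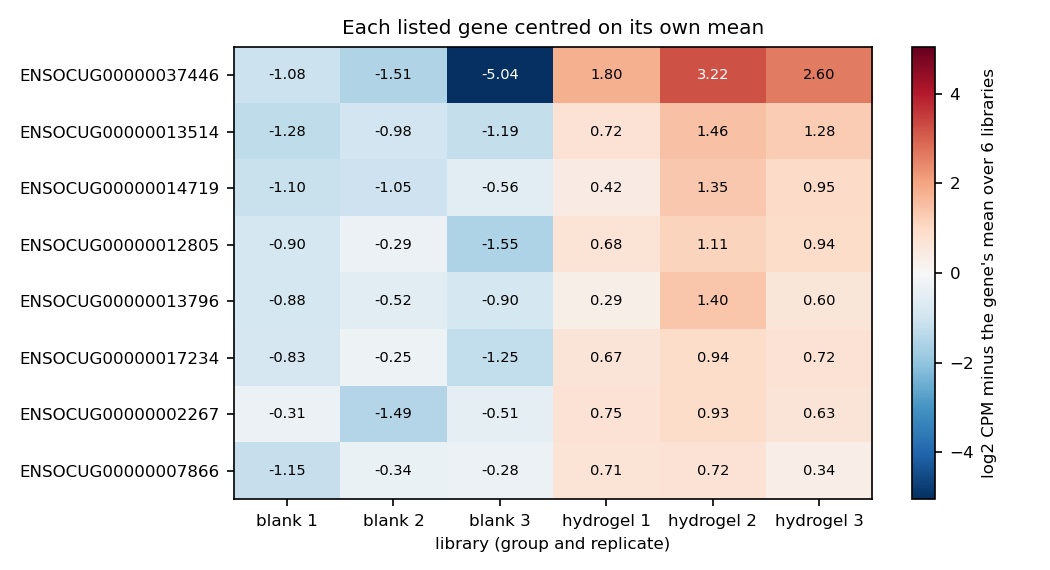
Log2 CPM of each of the 8 genes minus the gene's own mean over the 6 libraries, as a colour and a number. Hydrogel replicate 2 has the highest value in each row, and ENSOCUG00000037446 has the widest range, from -5.04 in blank replicate 3 to 3.22 in hydrogel replicate 2.

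The make-up of the reads within the 8 genes also differed between libraries. ENSOCUG00000037446 supplied 3.55%, 2.19% and 0.192% of the reads of the 8 genes in blank replicates 1 to 3 and 8.38%, 13.7% and 11.3% in hydrogel replicates 1 to 3. ENSOCUG00000013514 supplied 14.7% to 15.2% in blank and 18.8% to 21.4% in hydrogel. For ENSOCUG00000007866 the blank share was 5.15% to 9.07% and the hydrogel share 3.57% to 5.95%, and these ranges overlapped. ENSOCUG00000014719 supplied 25.2% to 40.9% of the reads in blank and 26.7% to 31.1% in hydrogel, which also overlapped.

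Pairs of the 8 genes differed in how closely they moved over the libraries. The measure was the root-mean-square difference of log2 CPM over the 6 libraries after centring each gene on its own mean, so that 0 means the same profile. The closest pair was ENSOCUG00000012805 and ENSOCUG00000017234, both under glutathione metabolic process, at 0.169. All 7 pairs that held ENSOCUG00000037446 were farther apart than any other pair, up to 2.47 with ENSOCUG00000007866. The pairs share libraries and depth, and the values are a description.

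Of 218 other genes that the authors' deposited term tables list, the 5 nearest to the mean profile of the 8 genes were taken. The nearest was ENSOCUG00000015217, listed under oxidation-reduction process, at a distance of 0.280; it was at 135, 172 and 78.6 CPM in blank replicates 1 to 3 and at 290, 487 and 418 CPM in hydrogel replicates 1 to 3. The next was ENSOCUG00000014668, listed under Huntington's disease, at 0.287. Both ENSOCUG00000005964, at 0.376, and ENSOCUG00000017896, at 0.382, are listed under cilium assembly. The last was ENSOCUG00000029113, at 0.385, listed under oxidation-reduction process, oxidative phosphorylation and Parkinson's disease. All but this last gene had their lowest blank CPM in replicate 3, as did 42.1% of all genes tested. Nearness to this profile was not confined to listed genes. Of the 13590 genes tested that are none of the 8, with the 218 among them, 85 were at least as near as the last of the 5, these 5 included. The shares of listed and unlisted genes that were so near were not compared. Nor is the profile that of each of the 8 genes. ENSOCUG00000037446 itself lay at 1.86 from it, where the median over the 218 genes was 1.83. In blank replicate 3 this gene was at -5.04 in centred log2 CPM, and the mean profile, which includes it, was at -1.41. Neighbours of a profile without this gene were not sought, so the 5 named partly reflect its 10 reads in that library. ENSOCUG00000014719, ENSOCUG00000002267 and ENSOCUG00000007866, at 0.392, 0.581 and 0.636, were also farther from the mean profile than the 5 neighbours. The remaining genes of the 8 were at 0.215 to 0.349.

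ENSOCUG00000037446 was then compared alone with the same 218 genes, a step chosen after its values were seen. Other tested genes were not searched in this step, so whether genes outside these lists were as near is not known. The 3 nearest genes are all listed under mucin type O-glycan biosynthesis, which attaches the first sugars to mucins and of which 8 genes were among the 218. The nearest, ENSOCUG00000004957, was at 13.0, 13.9 and 0.752 CPM in blank replicates 1 to 3 and at 145, 206 and 197 CPM in hydrogel replicates 1 to 3, a distance of 0.283. The other 2, ENSOCUG00000005798 and ENSOCUG00000025291, were at 0.510 and 0.549. The fourth was ENSOCUG00000016831 of PPAR signaling at 0.742 and the last ENSOCUG00000011895 of cilium movement at 0.793, and all 5 had their lowest blank value in replicate 3. With the group means removed, so that variation within groups alone was left, the same 3 genes were nearest, at 0.282, 0.407 and 0.470, followed by 2 genes of Huntington's disease, both at 0.600. ENSOCUG00000037446 and ENSOCUG00000004957 were more than 3-fold lower in blank replicate 3 than in each other blank library, as were 10.8% of all genes tested. ENSOCUG00000005798 had 0 reads and ENSOCUG00000025291 had 1 read in that library, so their distances rest on counts near 0 and no fold is given for them. Of the 8 glutathione genes, ENSOCUG00000037446 was the single one with this pattern. The mucin list did not share it as a whole. Of its 8 genes, 5 had their lowest blank value in replicate 3, against 42.1% of all genes tested. ENSOCUG00000016221 of that list was at 52.6, 69.6 and 63.7 CPM in blank replicates 1 to 3.

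Levels of other lists also differed between the groups, most in the same direction as the 8 genes, and their part in the result was not tested. These lists come from the same deposited tables and the same comparison, and their levels are geometric means over listed genes that are none of the 8. The 8 glutathione genes were at 28.2, 38.0 and 20.5 CPM by geometric mean in blank replicates 1 to 3 and at 103, 161 and 119 CPM in hydrogel replicates 1 to 3. The 6 genes of cilium movement were at 6.91, 0.641 and 0.819 CPM in blank and at 57.3, 136 and 118 CPM in hydrogel. By geometric mean, blank replicate 1 was far above the other blanks for cilium movement and lay between them for the glutathione genes. By summed CPM it was the lowest blank for the glutathione genes, at 284 against 418 and 302 CPM. The geometric mean of blank replicate 3 includes the 10 reads of ENSOCUG00000037446. The 14 genes of cilium assembly were at 17.0, 10.1 and 8.02 CPM in blank and 44.5, 107 and 105 CPM in hydrogel. The 8 genes of mucin type O-glycan biosynthesis were at 8.68, 7.53 and 1.21 CPM in blank and 42.87 to 52.95 CPM in hydrogel. Their value in blank replicate 3 includes genes with 0, 1, 3 and 13 reads, while ENSOCUG00000016221 was at 63.7 CPM there. The 34 other genes of oxidation-reduction process were at 12.4 to 17.1 CPM in blank and 82.0 to 91.5 CPM in hydrogel, and the 12 genes of oxidative phosphorylation at 244 to 324 and 999 to 1219 CPM. The 9 genes of extracellular matrix organization went the other way, at 129 to 213 CPM in blank and 43.2 to 56.7 CPM in hydrogel.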

How the data were processed

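The deposited values used are whole-number read counts per gene from the authors, in 6 rabbit trachea libraries; values in the per-sample tables and the series table differed in 0 cells. Per the submitters' processing notes, upstream software included HISAT2 2.2.1 and featureCounts 2.0.2, with Trimmomatic 0.39, FastQC 0.11.9, GATK 4.3.0.0 and DESeq2 1.34.0 beside them. Those notes name the builds GRCh38 and mm10. What rabbit build, annotation and strand setting served is not given in the sources used here, so overlapping genes and near-identical copies, frequent among glutathione transferases, may share reads. Log2 fold changes and adjusted p-values were read from the authors' deposited comparison table, and gene lists from their deposited GO and KEGG tables. In each workbook 495 other numeric columns were not used.

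The count test was edgeR 4.0.16 in R 4.3.3 (quasi-likelihood fit, TMM, filterByExpr by group, group as the term, Benjamini-Hochberg adjustment, threshold 0.05). The biological coefficient of variation was 58.5%. The SE is the fold change divided by the root of its F statistic. CPM used library totals; log2 CPM used TMM and a prior count of 2. List levels used a pseudocount of 0.05 CPM. The fit was checked on simulated counts. Alternatives used DESeq2 1.42.0, limma 3.58.1, other scalings, no filter, a replicate block, and leaving out each library in turn. Figures used matplotlib 3.10.9.

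The 8 genes and all lists were chosen with earlier results of these data known. All 8 genes are named; the 5 neighbours are the listed genes with the smallest distance from their mean profile. Of the identifiers, 0 matched the reference table (mOryCun1.1), so lists of pathway genes and cell type markers given by symbol could not be used.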

Additional observations from a re-analysis of the deposited data

How the results depend on the processing

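The median log2 fold change of the 8 genes ran from 1.50 to 1.84 over 14 alternatives. The 112 single-gene values all stayed above 0. Each differed from the value reported by less than the gene's larger within-group SD of log2 CPM. The 8 genes did not overlap between groups, and leaving out 1 of 3 libraries moves a group mean by less than that SD. For those fits the outcome was therefore largely fixed beforehand and is a description. The calls depended on the test and on single libraries. DESeq2 called 2104 genes in all, against 865 with edgeR, and 8 of the 8. With 1 library left out, edgeR called between 7 and 741 genes, and 0 to 5 of the 8, the lowest without hydrogel replicate 2. With the replicate number as a block, edgeR called 15 genes in all and 0 of the 8. At an unadjusted p under 0.05 the block passed 18.4% of all genes and 8 of the 8, which were listed for this contrast. Deviations of same-numbered libraries correlated at -0.20, 0.01 and -0.10, and the labels do not say that the numbers pair animals. The cause of these differences was not tested. Limma-voom called 609 genes in all and 5 of the 8, and upper-quartile scaling 886 and 6. Upper-quartile scaling moved the median of all genes to -0.11. The share of counts became 0.0231% in blank and 0.0922% in hydrogel without ENSOCUG00000014719, by construction. With 1 library left out it ran from 0.0293% to 0.0360% in blank and from 0.113% to 0.146% in hydrogel. Depth limited 1 value, the 10 reads of ENSOCUG00000037446 in blank replicate 3.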
